A study of Rattus norvegicus with 20 samples.

Results

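The contractile genes of fast muscle fibres were followed in gastrocnemius muscle of tumour-bearing rats. Members were chosen by symbol: of 10 fast-fibre symbols looked for among the 32495 named rows of the count table, 8 had a row, namely Myh4, Myl1, Mylpf, Tnnt3, Tnni2, Tnnc2, Actn3 and Pvalb. Myh1 and Myh2 had no row and are not analysed here. Female Fischer 344 rats carried an implanted Ward colorectal carcinoma in all 3 conditions. TUMOUR STD rats ate the standard diet and received no chemotherapy, CHEMO STD rats received CPT-11 (irinotecan) and, on the following day, 5-FU in repeated cycles on the standard diet, and CHEMO FO rats received the same drugs and were moved to a fish oil diet holding EPA and DHA on the day chemotherapy began. Muscle was taken about a week after the last cycle. No animals without a tumour and no fish oil group without chemotherapy were compared here, so diet can be read only within chemotherapy and chemotherapy only within tumour bearing. The labels do not say how libraries relate to animals beyond naming them as separate samples, and a p value then measures the spread between these samples.

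Skeletal muscle fibres contract when myosin heads, driven by ATP, pull on actin filaments, and calcium released in the cell switches this on through troponin. Fast and slow fibres carry different versions of the same parts. Fast fibres use their own myosin heavy chains and light chains, a fast troponin complex and the Z-disc protein alpha-actinin-3, and they buffer calcium with parvalbumin, which speeds relaxation. The gastrocnemius of the rat is a mixed muscle made mostly of fast fibres, and fast fibres are widely described as the ones that shrink first in wasting. Whether chemotherapy or fish oil moved the messages of the fast contractile machinery is the question of the comparisons below.

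Libraries held between 3020821 and 10857477 counts on named genes, and the lowest count of any member in any library was 8276 (Pvalb), so counting error was small beside the differences between samples. CHEMO STD replicates 1 and 2 differed by far less than other libraries of a condition, with a chi-square per gene of 2.23 against at least 13.7 in the other 58 pairs, and were counted as 1 sample, leaving 5, 6 and 8 samples in TUMOUR STD, CHEMO STD and CHEMO FO. The skeletal muscle markers Acta1, Ckm, Des and Neb were abundant in every library, and the heart markers Myl7 and Nppa had 0 counts in all 20. CHEMO FO replicate 18 stood apart and is described with the values below, which are given with and without it where it changed them.

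The promoter sequences of 4 members are shown because these genes differed in how they varied together across samples (below). Mylpf and Tnni2 moved almost as 1 gene. Myh4 was little tied to the other members only once CHEMO FO replicate 18 was left out (r -0.28 to 0.21, against 0.46 to 0.69 with it). Tnnc2 was little tied to Mylpf and Tnni2 but kept an r of 0.56 with Tnnt3 without that library. Each sequence is the 250 bases before the gene start in RefSeq (rat build GRCr8, given strand), written 5′ to 3′. Capitals mark E-boxes (CANNTG), the TATAAA box and MEF2 motifs on either strand.
Myh4, chr10:52421898-52422147, plus strand: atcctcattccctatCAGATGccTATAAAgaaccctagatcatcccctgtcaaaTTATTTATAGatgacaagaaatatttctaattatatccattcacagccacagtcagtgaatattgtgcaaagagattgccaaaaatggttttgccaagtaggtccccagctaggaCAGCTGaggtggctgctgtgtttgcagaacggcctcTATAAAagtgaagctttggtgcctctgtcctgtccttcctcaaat
Mylpf (Myl11 in RefSeq), chr1:191260039-191260288, plus strand: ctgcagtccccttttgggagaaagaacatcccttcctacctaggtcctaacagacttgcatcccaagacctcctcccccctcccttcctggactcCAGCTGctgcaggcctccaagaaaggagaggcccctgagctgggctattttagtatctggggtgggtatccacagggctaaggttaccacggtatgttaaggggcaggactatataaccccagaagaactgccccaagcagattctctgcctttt
Tnni2, chr1:207024240-207024489, plus strand: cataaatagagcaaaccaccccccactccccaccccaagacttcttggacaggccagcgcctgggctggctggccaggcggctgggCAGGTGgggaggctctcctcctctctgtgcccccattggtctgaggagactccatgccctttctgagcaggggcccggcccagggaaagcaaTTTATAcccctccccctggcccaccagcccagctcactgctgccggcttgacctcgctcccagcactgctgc
Tnnc2, chr3:173935340-173935589, minus strand: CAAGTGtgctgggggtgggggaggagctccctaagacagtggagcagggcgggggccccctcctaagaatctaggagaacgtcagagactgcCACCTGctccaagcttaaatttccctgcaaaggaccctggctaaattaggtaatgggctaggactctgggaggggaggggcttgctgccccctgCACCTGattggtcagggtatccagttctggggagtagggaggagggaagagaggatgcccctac
The reference table held a promoter for 7 of the 8 members, with 8 windows because Myl1 has 2 starts. At least 1 E-box was found in 7 of the 8 windows, against 65.5% of the 33469 rat promoters of the same length. The E-box CAGCTG was found in 2 windows, those of Myh4 and Mylpf, against 12.0% of all promoters, and it is counted among the E-boxes as well. TATAAA was found in 3 windows, of Myh4, Tnni2 and Myl1, against 12.9%. The MEF2 motif was found in 2 windows (Myh4 and Myl1) against 2.96% and the CArG box in 1 (Myh4) against 1.5%, while TCAGGTT, the MEF3 motif, was found in none against 3.30%. In Myh4 the MEF2 motif overlapped a TATAAA motif. Mylpf and Tnni2, which moved together, each held 1 E-box, at positions -155 and -164 from the gene start, of which the first reads CAGCTG and the second does not. Tnnc2, which was little tied to either gene, also held an E-box between these positions, at -158, so this placing was not particular to the pair. Such matches describe letters and do not mark bound sites.

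Myh4 encodes the myosin heavy chain of type IIB fibres, the fastest motor of the muscle, and took the largest share of counts of any member. Its level, in CPM (counts scaled to a common library size with TMM factors), was 97361, 100379, 102967, 102136 and 92974 in TUMOUR STD replicates 8 to 12. In CHEMO STD it was 76108 in replicates 1 and 2 together and 98519, 85888, 83800, 100792 and 87857 in replicates 3 to 7. TUMOUR STD was tight, with a coefficient of variation of 4.11% against 10.5% in CHEMO STD, and the 6 CHEMO STD samples reached from below the TUMOUR STD range to within it. In CHEMO FO the lowest value was 61779 (replicate 18), the median 96451 and the highest 113109 (replicate 14). The means were 99163 ± 4072 CPM (SD, n = 5) in TUMOUR STD, 88827 ± 9314 (n = 6) in CHEMO STD and 93361 ± 15303 (n = 8) in CHEMO FO. Their order was TUMOUR STD, CHEMO FO, CHEMO STD, and neighbours in it did not differ beyond their spread.

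The light chains sit on the neck of the myosin head. Myl1, the essential light chain of fast fibres, was 9633, 9064, 9160, 13919 and 12171 CPM in TUMOUR STD replicates 8 to 12. It was 12393 CPM in CHEMO STD replicates 1 and 2 together and 14596, 12831, 11195, 12594 and 12675 in replicates 3 to 7. In TUMOUR STD 3 of the 5 samples lay below every CHEMO STD sample and the other two lay among them. CHEMO FO ran from 6864 (replicate 18) through a median of 12820 to 13981, which overlapped both other conditions, and the highest value of all was that of CHEMO STD replicate 3. Mylpf, the phosphorylatable regulatory light chain, ranged from 9568 to 15812 CPM in TUMOUR STD, from 9650 to 14587 in CHEMO STD and from 5436 to 14680 in CHEMO FO. Its condition means differed by less than their spread, at 12304 ± 2895 (n = 5), 12496 ± 1630 (n = 6) and 11694 ± 2850 (n = 8).

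Troponin has a calcium-binding subunit (C), an inhibitory subunit (I) and a tropomyosin-binding subunit (T), and each has a fast version. Tnnc2, fast troponin C, was 6395, 5434, 4671, 8343 and 4926 CPM in TUMOUR STD replicates 8 to 12. It was 6128 CPM in CHEMO STD replicates 1 and 2 together and 8260, 7926, 7403, 7724 and 6852 in replicates 3 to 7. Of the TUMOUR STD samples, 3 lay below the lowest CHEMO STD sample and replicate 11 lay above the highest. In CHEMO FO Tnnc2 ran from 4810 (replicate 16) through a median of 6798 to 8125 CPM. Tnnt3, fast troponin T, averaged 13847 ± 2327 CPM (n = 5) in TUMOUR STD, 16122 ± 1101 (n = 6) in CHEMO STD and 15533 ± 2612 (n = 8) in CHEMO FO. Tnni2, fast troponin I, averaged 8689 ± 1585, 9225 ± 1054 and 8994 ± 2051 CPM in the same order. In both genes every pair of conditions overlapped.

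Actn3, which anchors actin filaments at the Z-disc of fast fibres, was the most variable member within TUMOUR STD, from 8373 in replicate 8 to 16667 CPM in replicate 10. It ran from 10038 to 16203 CPM in CHEMO STD and from 6880 (replicate 18) to 17606 in CHEMO FO, with means of 12883 ± 3278 (n = 5), 12541 ± 2265 (n = 6) and 13755 ± 3252 (n = 8). Pvalb, the calcium buffer parvalbumin, was 2561, 2887, 2959, 4445 and 3783 CPM in TUMOUR STD replicates 8 to 12. It was 4075 CPM in CHEMO STD replicates 1 and 2 together and 4684, 4185, 2726, 4025 and 3048 in replicates 3 to 7, which overlapped TUMOUR STD at both ends. In CHEMO FO Pvalb was 1128 CPM in replicate 18, the lowest of all samples, and otherwise lay between 2856 and 4313.

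**Figure D1:**
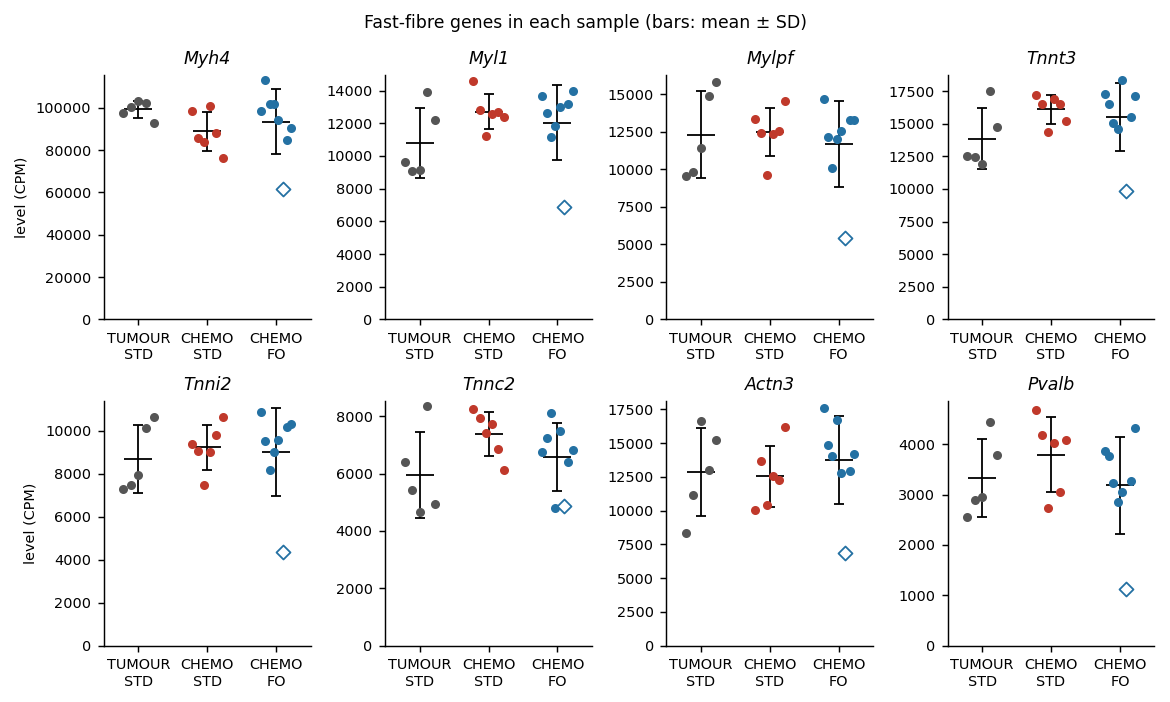
Level of each of the 8 fast-fibre genes in CPM (vertical axis, from 0) in TUMOUR STD (grey, n = 5), CHEMO STD (red, n = 6) and CHEMO FO (blue, n = 8), 1 point a sample, with mean and SD as bars. The open diamond is CHEMO FO replicate 18, the lowest of all 19 samples in 7 of the 8 genes, and the 3 conditions overlap in each gene.

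Summed over the 8 members, the fast genes held 16.7% ± 0.915 of all counts in TUMOUR STD (SD, n = 5), 16.5% ± 0.881 in CHEMO STD (n = 6) and 16.2% ± 1.80 in CHEMO FO (n = 8), where the lowest sample was at 12.1%. These shares are sums of counts and are not corrected for gene length. Myh4 alone held 9.92%, 8.97% and 9.15%. A set of 11 slow-fibre contractile genes held 1.38% ± 0.316, 0.877% ± 0.195 and 0.997% ± 0.327.

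None of the fast-fibre genes passed edgeR's quasi-likelihood test of CHEMO STD against TUMOUR STD, the contrast of chemotherapy with none on the standard diet. The paper reports that rats ate less after chemotherapy on both diets, and the part of lower intake in these values was not tested. At the unadjusted threshold of 0.05, 0 of the 8 members passed, against 6.43% of the 11716 genes tested (2.63% higher and 3.8% lower), and 0 passed with a 1.5-fold change as well, against 2.36%. After Benjamini-Hochberg adjustment no gene of the whole table passed 0.05 in edgeR or in DESeq2, although 753 passed the unadjusted threshold in edgeR. The estimates were higher in CHEMO STD for 6 members and lower for 2, with a median log2 fold change of 0.13 against -0.0016 for all genes tested. Tnnc2 had the largest estimate, a log2 fold change of 0.31 ± 0.168 (SE; adjusted p = 0.728 by edgeR's quasi-likelihood test). Myl1 at 0.23 ± 0.170 and Tnnt3 at 0.21 ± 0.155 came next, and Myh4 had the lowest estimate, -0.17 ± 0.152. The 95% intervals of 6 members lay inside a 1.5-fold change either way, and those of Tnnc2 (-0.04 to 0.65) and Pvalb (-0.31 to 0.67) reached beyond it on the higher side. Tnnc2 was the 1 member whose call turned on the processing: it passed the unadjusted threshold in edgeR without TUMOUR STD replicate 11 (0.46, where 9.95% of all genes passed), in edgeR without CHEMO FO replicate 18 (0.31, 8.88% of all genes) and in limma voom with sample weights (0.29, 8.83% of all genes).

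The fish oil diet was set against the standard diet among treated rats. In CHEMO FO against CHEMO STD, 0 of the 8 members passed an unadjusted p of 0.05 in edgeR, against 4.41% of all genes (2.39% higher and 2.02% lower), and 0 passed with a 1.5-fold change, against 1.6%. Here 2 estimates were higher in CHEMO FO (Actn3 and Myh4) and 6 were lower, with a median of -0.07, and without CHEMO FO replicate 18 the split turned to 6 higher and 2 lower with a median of 0.02 and still 0 members past the threshold, against 5.22% of all genes. Pvalb had the estimate farthest from no change, a log2 fold change of -0.26 ± 0.210 (adjusted p = 0.976 in edgeR), and -0.12 without replicate 18. Actn3 was at 0.13 ± 0.188 and passed the unadjusted threshold at 0.29 in limma voom, which gives outlying libraries less weight and which passed 11.2% of all genes. The intervals of 7 members lay inside a 1.5-fold change and that of Pvalb (-0.69 to 0.18) reached beyond it on the lower side.

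CHEMO FO against TUMOUR STD, a contrast of drugs and diet together that the study did not make, shares its samples with both comparisons above. In edgeR 0 of the 8 members passed, against 8.8% of all genes (3.58% higher and 5.22% lower), or 3.41% with a 1.5-fold change, and all 8 intervals lay inside a 1.5-fold change. Estimates ran from -0.10 (Myh4) to 0.16 (Tnnt3), with 5 higher, 3 lower and a median of 0.06. Without CHEMO FO replicate 18, Tnnt3 (0.24) and Myl1 (0.25) passed the unadjusted threshold in edgeR, 2 of 8 members against 8.84% of all genes, and the split was 7 higher and 1 lower.

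**Figure D2:**
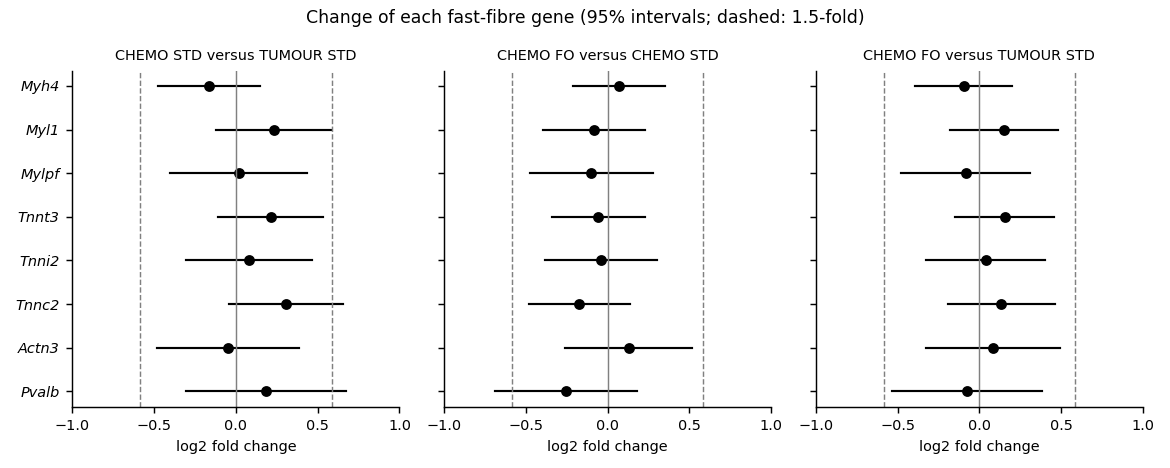
Log2 fold change (horizontal axis) of each fast-fibre gene in the 3 comparisons from edgeR, with 95% intervals as lines, no change as a solid line and 1.5-fold changes as dashed lines. Every interval crosses no change, and 6, 7 and 8 of the 8 intervals from left to right stay between the dashed lines.

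Set against the slow version of the same part, however, the fast genes stood higher after chemotherapy. The ratio of a fast gene to its slow counterpart (for Actn3, the all-fibre Actn2) in the same library does not depend on how libraries are scaled. It is given for 7 pairs as a description, with no p. For Myh4 over Myh7, the slow myosin heavy chain, the log2 ratio was 3.90, 3.77, 3.45, 4.90 and 3.71 in TUMOUR STD replicates 8 to 12. It was 4.44 in CHEMO STD replicates 1 and 2 together and 4.80, 4.48, 4.15, 5.09 and 5.01 in replicates 3 to 7. The TUMOUR STD samples sat below all of CHEMO STD but for replicate 11, which lay among the highest. In CHEMO FO the ratio ran from 3.58 (replicate 19) through 4.51 to 5.45 (replicate 15).

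In all 7 pairs CHEMO STD had the higher mean log2 ratio, by 0.34 to 0.77 with a median of 0.60, and stayed higher when any 1 sample was left out. Myl1 over Myl3, the slow essential light chain, gave the largest difference, 0.77, with an SD of 0.306 in CHEMO STD (n = 6) and 0.491 in TUMOUR STD (n = 5). Tnnc2 over Tnnc1, the slow troponin C, differed by 0.63, with an SD of 0.327 and 0.489, and Mylpf over Myl2 gave the smallest difference, 5.73 ± 0.519 against 5.39 ± 0.518. The conditions overlapped in every pair. Between CHEMO FO and CHEMO STD the ratio was lower in 6 of the 7 pairs, by at most 0.32, and Actn3 over Actn2 differed by 0.0032. CHEMO FO lay above TUMOUR STD in all 7 pairs, by 0.04 (Mylpf over Myl2) to 0.56 (Actn3 over Actn2), and 6 of them stayed higher when any 1 sample was left out. Mylpf over Myl2 turned to -0.14 without TUMOUR STD replicate 8.

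**Figure D3:**
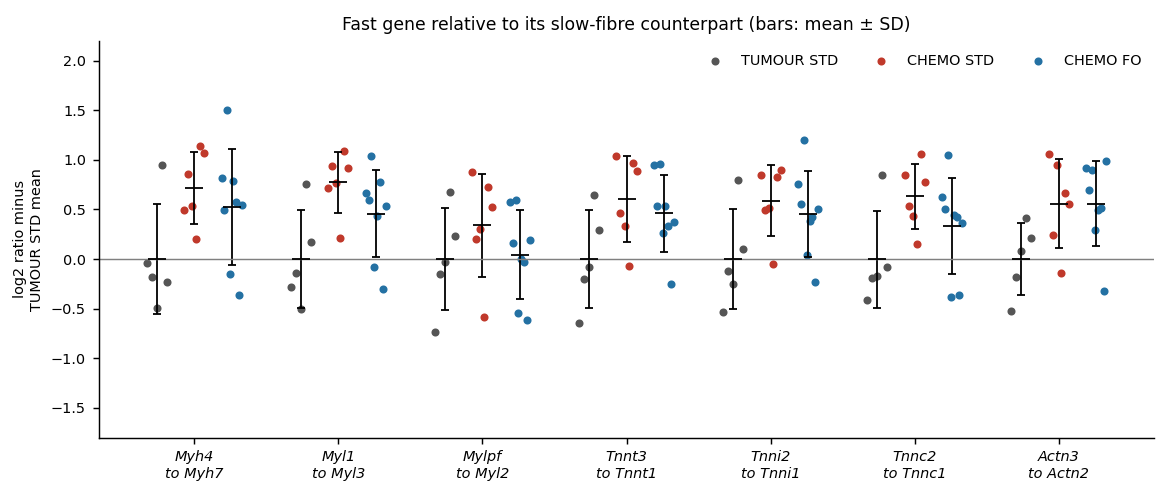
Log2 ratio of 7 fast-fibre genes (all but Pvalb) to their slow counterpart, or for Actn3 to Actn2 of all fibres, with the TUMOUR STD mean of the pair subtracted (vertical axis), 1 point a sample, in TUMOUR STD (grey, n = 5), CHEMO STD (red, n = 6) and CHEMO FO (blue, n = 8), with mean and SD as bars. The CHEMO STD means lie 0.34 to 0.77 above those of TUMOUR STD, and the conditions overlap in all 7 pairs.

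The slow genes themselves stood lower. They were read in the same samples and are not independent of each other, and neither are the ratios above. All 11 slow contractile genes had lower estimates in CHEMO STD against TUMOUR STD in edgeR and under each alternative tried, with a median log2 fold change of -0.36. At the unadjusted threshold of 0.05, 4 of them fell, against 3.8% of all genes: Myh7 (-0.94), the slow calcium pump Atp2a2 (-0.62), Myl3 (-0.53) and Myh7b (-0.47), each with adjusted p = 0.728 in edgeR. That count went from 4 to 7 without CHEMO STD replicate 5 and to 2 without TUMOUR STD replicate 8, CHEMO STD replicate 7 or CHEMO STD replicates 1 and 2. Over all genes, the number past 0.05 with a 1.5-fold change ran from 158 to 592 with 1 sample left out. The share of all genes at the unadjusted threshold alone is not given for these fits. In CHEMO FO against TUMOUR STD all 11 estimates were lower in edgeR, although 1 was higher in limma voom and without TUMOUR STD replicate 8 or CHEMO FO replicate 15 or 18, and 3 fell (Myh7, Myh7b and Atp2a2), against 5.22% of all genes. That count went to 1 in limma voom and without TUMOUR STD replicate 8, 9 or 10 or CHEMO FO replicate 15 or 18 and to 7 without CHEMO FO replicate 19. Without CHEMO FO replicate 18, 8.84% of all genes passed in either direction, and the share is not given for the other fits. Between CHEMO FO and CHEMO STD 0 of the 11 passed in edgeR, against 4.41% of all genes in either direction. In limma voom 1 of the 11 passed, against 11.2% of all genes. Without CHEMO FO replicate 18, 1 of the 11 passed in edgeR, against 5.22% of all genes. The Z-disc protein Actn2, the counterpart of Actn3 used in all fibres, fell in CHEMO STD against TUMOUR STD as well (-0.58, adjusted p = 0.728 in edgeR). In bulk muscle, fewer slow fibres and less message per slow fibre cannot be told apart.

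Other genes of the fast programme were looked at as well. Of 8 further fast sarcomere and calcium genes 7 were tested, among them Mybpc2 (fast myosin-binding protein C), Myom2 and the calcium store Casq1. In edgeR 0 of the 7 passed an unadjusted p of 0.05 in any of the 3 comparisons, against 6.43%, 4.41% and 8.8% of all genes. With shares this small, 0 of 7 is not a result about these genes. Their median log2 fold changes were -0.0019, -0.00024 and 0.04. Among the neighbours of Myh4 in the myosin gene cluster of chromosome 10, the developmental genes Myh3 and Myh8 had a row. Neither passed in CHEMO STD against TUMOUR STD in edgeR (-0.36 for Myh3 and 0.21 for Myh8), and Myh8 fell in CHEMO FO against CHEMO STD (-0.43, adjusted p = 0.976 in edgeR). Myh6, the heavy chain shared with the heart, fell in CHEMO STD (-0.68) and in CHEMO FO (-0.47) against TUMOUR STD at the unadjusted threshold in edgeR.

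Markers of other cells moved with the comparisons and are given beside these values. All 3 smooth muscle markers tested (Acta2, Myh11 and Tagln) fell in CHEMO STD against TUMOUR STD in edgeR at the unadjusted threshold, against 3.8% of all genes, with a summed level of 132 to 217 CPM in TUMOUR STD and 57.3 to 119 in CHEMO STD. Of 4 leukocyte markers 2 (Ptprc at 1.16 and Lyz2 at 0.72 on the log2 scale) rose in CHEMO STD against TUMOUR STD, against 2.63% of all genes. Both fell in CHEMO FO against CHEMO STD, against 2.02%. Cd74 (0.32) and Cd68 (-0.13) did not pass in the first of these comparisons, nor in the second (-0.47 and -0.08). CHEMO STD replicate 7 weighed on these values, with 66.1 CPM of Ptprc beside a condition median of 12.0. Without it 0 of the 4 passed in CHEMO STD against TUMOUR STD (0.39 for Ptprc and 0.31 for Lyz2). In CHEMO FO against CHEMO STD Lyz2 (-0.39, unadjusted p = 0.016 in edgeR) passed, and Ptprc (-0.38, unadjusted p = 0.047 in edgeR) passed narrowly. These edgeR fits were chosen after seeing the data, and the share of all genes past the threshold is not given for them. The keratinocyte sum was 287 CPM in TUMOUR STD replicate 10 and 68.7 in CHEMO FO replicate 16 and at most 2.51 in any CHEMO STD sample, with Krt5 at 0 counts in 17 of 20 libraries. Their part in the values of the fast genes was not tested, and the fast members together summed to 147005 CPM or more in every sample but CHEMO FO replicate 18.

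A single library differed more than the conditions did. CHEMO FO replicate 18 had the lowest level of all 19 samples in 7 of the 8 members and a summed level of 101129 CPM. Levels in CPM are divided by a TMM factor, which in the fit was 1.21 for this library, the highest of the 19 samples. As plain shares of counts, the members held 12.1% in it, against 15.4% in the lowest CHEMO STD sample. Myh4 alone held 7.40%, against 7.61% in the lowest CHEMO STD sample. Pvalb stood at 32.4% of the mean of the other 7 CHEMO FO samples, Mylpf at 43.2%, Tnni2 at 45.0%, Actn3 at 46.7%, Myl1 at 53.7%, Tnnt3 at 60.2%, Myh4 at 63.1% and Tnnc2 at 71.3%. Within the contractile set the levels were thus unevenly low. Other abundant muscle messages were low in it too, such as Ckm (muscle creatine kinase) at 49.4% and Acta1 (skeletal actin) at 44.6%, whereas the giant filament gene Neb stood at 88.0%. Not everything was low: the matrix gene Dcn stood at 166%, but the collagen gene Col1a1 at 8.32% of the mean of the others. The slow genes were low as well, at 39.9% for Myl3 and 56.7% for Myh7, and its Myh4 over Myh7 log2 ratio of 4.52 was near the CHEMO FO median of 4.51.

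**Figure D4:**
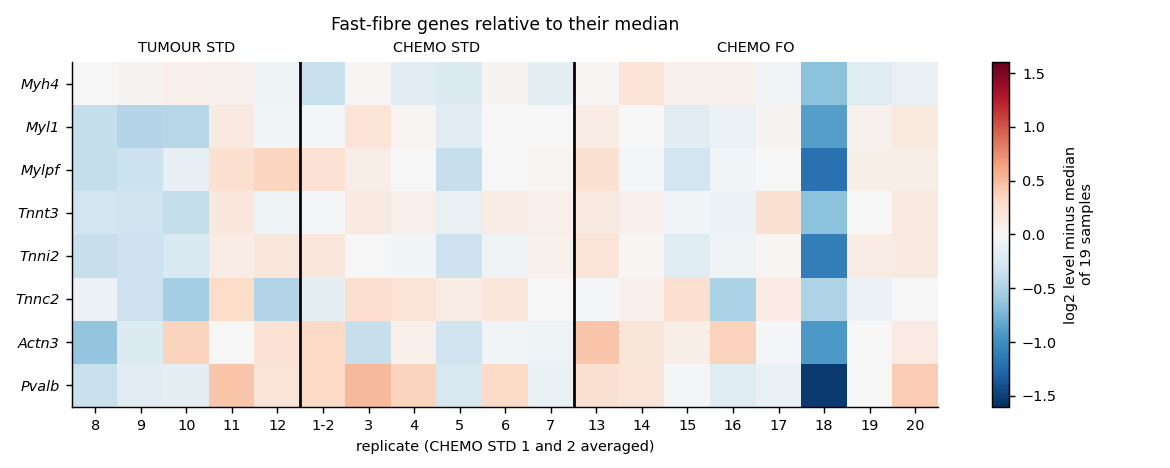
Level of each fast-fibre gene (rows) in each of the 19 samples (columns) as log2 level minus the median of the gene over all samples, blue for lower and red for higher. The column of CHEMO FO replicate 18 is the lowest in 7 of 8 rows and reaches -1.53 in Pvalb.

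How the members varied together within conditions differed from gene to gene. Pearson's r of log2 CPM, with the condition means removed, was computed for the 28 pairs of members over 19 samples that share depth and scaling, as a description. Mylpf and Tnni2 had the highest r, 0.99, and 0.98 without CHEMO FO replicate 18. Myl1 and Tnnt3 were at 0.96 and 0.90 without it. The lowest r was that of Tnnc2 and Actn3, -0.02, which became -0.49 without that library. Over all pairs the median r was 0.67 with it and 0.36 without, and the number of pairs above 0.8 went from 10 to 4: Mylpf with Tnni2 and Myl1 with each of Tnnt3, Mylpf and Tnni2. Pvalb with Myl1 came close, at 0.79 without that library.

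Myh4 was the member least tied to the rest once that library was set aside. Its r with the other members was 0.46 to 0.69 over 19 samples and -0.28 to 0.21 over 18. Among the 11716 genes tested, those with the most similar pattern to Myh4 were Myom2 (r 0.93, and 0.80 without replicate 18), Phka1 (0.90 and 0.75), Epha7 (0.90 and 0.70), Pdpr (0.88 and 0.63) and AABR07025295.1 (0.88 and 0.64). Myom2 is a protein of the M-band and Phka1 the muscle subunit of phosphorylase kinase. For Pvalb they were the glycolytic genes Pgk1 (0.96 and 0.86) and Eno3 (0.95 and 0.84), followed by Casq1 (0.93 and 0.77), Myl1 (0.92 and 0.79) and Dhrs7c (0.92 and 0.75).

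**Figure D5:**
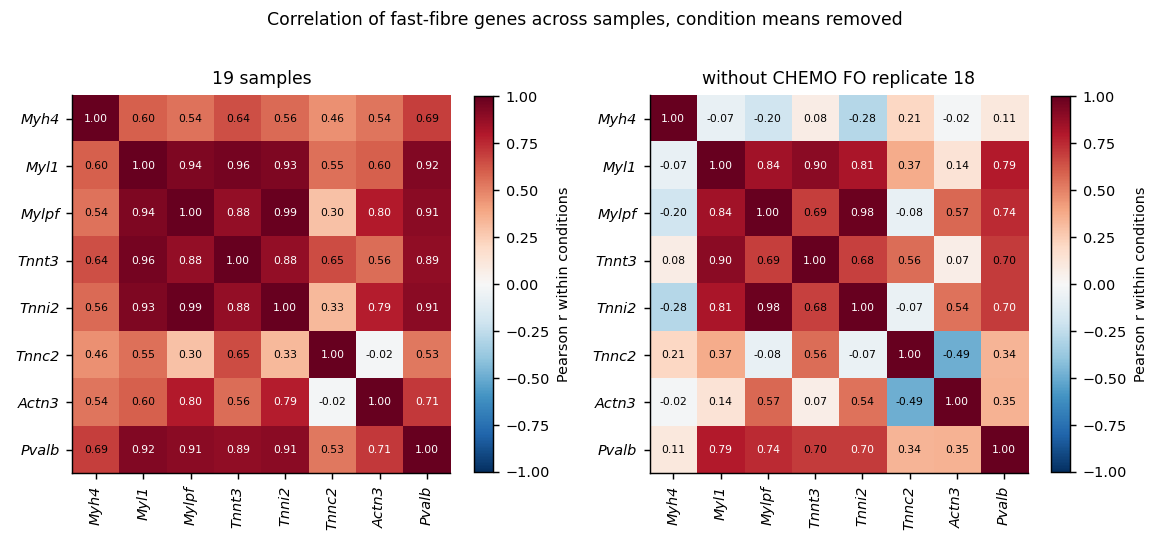
Pearson's r between each pair of fast-fibre genes across samples with condition means removed, over 19 samples (left) and over 18 without CHEMO FO replicate 18 (right), on a colour scale from -1 to 1. Mylpf and Tnni2 keep the highest r, 0.99 and 0.98, while the row of Myh4 drops from 0.46 to 0.69 on the left to -0.28 to 0.21 on the right.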

How the data were processed

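Gastrocnemius RNA was sequenced as rRNA-depleted, stranded libraries. The authors trimmed reads with Trim Galore 0.4.1, aligned them with TopHat2 2.0.10 and Bowtie2 to the rat genome Rnor 6, and deposited unnormalised counts per gene from an Ensembl annotation. How strand and reads shared by near-identical genes were counted was not stated in the sources read, and reads of related myosin heavy chains may be split or lost. A total of 388 rows without a gene name (0.102% to 0.272% of counts) were left out. Myh4 in TUMOUR STD replicates 9 and 10 was deposited to 3 significant digits.

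CHEMO STD replicates 1 and 2 were summed for the fit and averaged for levels. Counts were tested in edgeR 4.0.16 (R 4.3.3; TMM; default filter with minimum count 10 and minimum total 15; robust quasi-likelihood), with the 3 conditions fitted together and Benjamini-Hochberg adjustment over 11716 genes. The thresholds, unadjusted p below 0.05 with or without 1.5-fold, follow the study, which used DESeq2. Alternatives were DESeq2 1.42.0, limma 3.58.1 voom, other scalings, filters and samples. The fit was tested on simulated data. Exact permutation tests of the fast to slow ratios were also run once, after the data were seen, and are not reported, because the ratios had been planned as a description. Named genes were the members, their slow counterparts, listed genes past the threshold and the 5 genes most like Myh4 and Pvalb. Members and lists were chosen with earlier results of these data known. Comparing levels between genes per length, and shares of the adult myosin heavy chains, were not run, because exon lengths and the Myh1 and Myh2 rows were not at hand. Some of the listed genes are not reported here.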

Additional observations from a re-analysis of the deposited data

Results flagged for a closer look

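In each of 24 sets of a member and a condition, the gap of the lowest and of the highest sample to its neighbour was divided by the range of the set and compared with Dixon's critical value. Of these sets 5 passed, all of them the low value of CHEMO FO replicate 18 among 8 samples, where chance alone passes about 1 set in 20. The ratio was 0.603 for Myl1 (6864 CPM, next lowest 11158), 0.563 for Tnnt3 (9843, next 14632), 0.590 for Tnni2 (4345, next 8182), 0.552 for Actn3 (6880, next 12803) and 0.543 for Pvalb (1128, next 2856). The 5 sets come from 1 library and are not independent of each other. What set this library apart was not tested.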

How the results depend on the processing

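No member passed p below 0.05 with a 1.5-fold change under any alternative. At an unadjusted p below 0.05, limma voom with sample weights called 1 member in CHEMO STD against TUMOUR STD (Tnnc2) and 1 in CHEMO FO against CHEMO STD (Actn3). When each sample was left out in turn, the count ran from 0 to 1 in CHEMO STD against TUMOUR STD and from 0 to 2 in CHEMO FO against TUMOUR STD. DESeq2, the other scalings and filters, replicates 1 and 2 kept apart and a fit of only the 2 conditions compared called 0 members. The cause of these changes was not tested.

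Of 696 member estimates under alternatives, 30 changed sign, none of them past the threshold. Voom gave 0.0029 for Actn3 in CHEMO STD against TUMOUR STD. In CHEMO FO against CHEMO STD it gave 0.00072 for Myl1, 0.051 for Mylpf, 0.0079 for Tnnt3 and 0.11 for Tnni2, and in CHEMO FO against TUMOUR STD 0.070 for Mylpf and 0.052 for Pvalb. Scaling to Neb and Des gave -0.033 for Mylpf, and keeping replicates 1 and 2 apart 0.020 for Actn3, both in CHEMO STD against TUMOUR STD. With 1 sample left out, the range in CHEMO STD against TUMOUR STD was -0.057 to 0.13 for Mylpf and -0.16 to 0.070 for Actn3. In CHEMO FO against CHEMO STD it was -0.11 to 0.0087 for Myl1, -0.16 to 0.010 for Mylpf, -0.092 to 0.021 for Tnnt3 and -0.093 to 0.066 for Tnni2. In CHEMO FO against TUMOUR STD it was -0.16 to 0.033 for Mylpf, -0.011 to 0.15 for Tnni2, -0.027 to 0.20 for Actn3 and -0.14 to 0.065 for Pvalb.

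Without a filter on low counts the genes past p below 0.05 and 1.5-fold numbered 998, 731 and 1113 in the 3 comparisons, against 276, 187 and 400. With 1 sample left out they ran from 158 (without TUMOUR STD replicate 10) to 592 (without CHEMO STD replicates 1 and 2) in CHEMO STD against TUMOUR STD and from 258 (without CHEMO FO replicate 18) to 564 in CHEMO FO against TUMOUR STD. DESeq2 passed 11 genes at an adjusted p of 0.05 in CHEMO FO against TUMOUR STD, where edgeR passed 0. The scaling to pan-sarcomere genes rests on Neb and Des, since Ttn had no row. Counts of slow genes under each alternative were added after seeing the data. No paired analysis was possible because the conditions share no replicate numbers.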
